A study of Mus musculus with 10 samples.

Results

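The RNA of 7 oocyte transcription factors of early follicles, Figla, Nobox, Sohlh1, Sohlh2, Lhx8, Taf4b and Pou5f1, was examined in mouse ovaries. They were taken by gene name from a table of 55487 genes, and each name matched a single row. Ovaries of C57BL/6J mice were sequenced as a library per ovary, and 3 groups were compared. The Control group was 4 mice of 8 weeks. The Aged group was 3 mice of 11 months by the sample labels, and the study's methods give a slightly younger age at purchase. The Aged+CF group was 3 mice of the same age as Aged that received CEFFE, the cell-depleted fluid obtained when fat is broken up and spun down, as 200 μL at 3 μg/μL protein. By the study's methods it was given by tail vein every other day for a fortnight, and the Control and Aged mice received saline. All mice of the 3 groups were injected with 10 IU of PMSG, a gonadotropin that drives follicle growth, 48 h before the ovaries were taken. The age comparison thus sets young against old ovaries, and Aged+CF vs Aged sets the extract against saline in old ovaries.

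The factors act in oocytes, the germ cells that sit inside follicles. Sohlh1 and Sohlh2 are basic helix-loop-helix proteins of the germ line that act early, in oocytes of primordial follicles, and Lhx8, Figla and Nobox act with or below them. Figla is needed for primordial follicles to form and for the zona pellucida genes to be switched on, and Nobox and Lhx8 are needed for primordial follicles to develop further. Taf4b is a gonad-enriched subunit of TFIID, the general factor that RNA polymerase II needs at promoters. Pou5f1 (Oct4) is the pluripotency factor that growing oocytes also make. Since whole ovaries were sequenced, fewer oocytes and less RNA per oocyte cannot be told apart in any value that follows. RNA of a factor from other ovarian cells cannot be told apart from that of oocytes either.

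Basic helix-loop-helix factors such as Figla, Sohlh1 and Sohlh2 bind the E-box, CANNTG, which reads the same on both strands. The letters were searched in the 250 bases before the start site of 6 of the 7 genes with an entry in the RefSeq promoters of GRCm38.p6. By the GENCODE annotation, the Figla window (chr6:86016941-86017190) and a Pou5f1 window (chr17:35508557-35508806) lie inside the genes. The Lhx8 window holds 99 annotated exon bases. Of the 6 genes, 5 held an E-box, against 66.2% of 32851 promoters of that length. Sohlh1 held 5 E-boxes, which 1.15% of promoters reach or pass, and 3 of them read CACGTG. Figla and Nobox each held 2 E-boxes, as 31.8% of promoters do or exceed, Sohlh2 held 1, Lhx8 held 0, and the Pou5f1 windows held 1 and 2. The Nobox element (TAATTG, or TAATTA) and the Lhx8 element TGATTG were searched on both strands and were in none of these windows. They occur in 7.17%, 4.84% and 12.7% of promoters. A match is a description of letters and not a measured binding site. The promoter with the most E-boxes (Sohlh1, chr2:25847249-25847498, minus strand), that of Nobox (chr6:43309555-43309804, minus strand) and that of Bmp15 (chrX:6320725-6320974, minus strand), a growth factor gene of oocytes, are shown 5′ to 3′ because Sohlh1, Nobox and Bmp15 fell together in the ovaries. Capitals mark the searched motifs, which in Bmp15 are TAATTA, an E-box and TGATTG in that order.
Sohlh1: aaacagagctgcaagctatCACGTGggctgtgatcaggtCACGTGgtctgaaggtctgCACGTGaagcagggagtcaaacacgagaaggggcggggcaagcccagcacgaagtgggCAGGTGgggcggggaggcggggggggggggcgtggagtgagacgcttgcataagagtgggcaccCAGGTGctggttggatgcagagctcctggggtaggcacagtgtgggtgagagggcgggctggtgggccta
Nobox: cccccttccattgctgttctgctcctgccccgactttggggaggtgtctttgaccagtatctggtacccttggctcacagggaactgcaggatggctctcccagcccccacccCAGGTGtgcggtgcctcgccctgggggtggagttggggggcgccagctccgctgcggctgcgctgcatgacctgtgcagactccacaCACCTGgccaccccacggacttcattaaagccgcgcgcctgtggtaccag
Bmp15: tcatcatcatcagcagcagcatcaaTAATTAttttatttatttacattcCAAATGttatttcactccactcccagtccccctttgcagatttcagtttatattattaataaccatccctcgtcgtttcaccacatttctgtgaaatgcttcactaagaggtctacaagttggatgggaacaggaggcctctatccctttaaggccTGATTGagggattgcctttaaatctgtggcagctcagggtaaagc

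Figla (ENSMUSG00000030001, chr6:86016171-86020996, plus strand), Nobox (ENSMUSG00000029736, chr6:43303674-43309554, minus strand) and Sohlh1 (ENSMUSG00000059625, chr2:25842995-25847248, minus strand) are protein-coding genes of 4.83, 5.88 and 4.25 kb in the GENCODE annotation of GRCm38. Sohlh2 (ENSMUSG00000027794, chr3:55182028-55209957, plus strand) and Lhx8 (ENSMUSG00000096225, chr3:154306294-154330659, minus strand) lie on the same chromosome. Taf4b (ENSMUSG00000054321, chr18:14783245-14900359, plus strand) is the longest of the genes at 117.11 kb. Pou5f1 (ENSMUSG00000024406, chr17:35506018-35510772, plus strand) shares 317 exonic bases with the antisense gene Gm19553, which had 0 counts in all 10 ovaries.

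Between 15761789 and 21318254 reads were counted on genes per ovary. Of the 7 factors, 6 had enough counts for the test, edgeR's quasi-likelihood F test over 18956 genes and all 10 ovaries, and Sohlh2 did not. Figla and Sohlh1 entered it through the Control ovaries, which had to be the higher group, so their own p values and calls, and counts and medians over the 6 genes, are descriptions. Summed over 18 markers of growing oocytes, the levels were 696 to 923 CPM (counts scaled by the TMM method to a common library size) in Control, 41.6 to 233 CPM in Aged and 268 to 423 CPM in Aged+CF. Aged replicate 34 had the lowest sum. It also had 319 CPM of oviduct epithelium markers, as Control replicate 33 had 406 CPM, against 8.52 to 40.8 CPM in the other ovaries. Granulosa cell markers summed to 4468 to 7393 CPM in Control, 3442 to 3877 CPM in Aged and 2548 to 4313 CPM in Aged+CF. The theca cell marker sum had a median of 8109 CPM in Control, against 19458 CPM in Aged and 10234 CPM with CEFFE. With age, 4 of 7 theca markers were called higher, but the list did not move as one. Insl3 went the other way (log2 fold change -1.38, edgeR adjusted p = 0.0530), and Cyp17a1 had 0.43 (adjusted p = 0.810). Endothelium markers ran from 339 to 417, 495 to 656 and 427 to 460 CPM in that order of groups (5 of 6 called higher), and leukocyte markers from 106 to 117, 128 to 452 and 143 to 180 CPM (5 of 7). The part of these cell types in the results on the factors was not tested. Markers of the male germ line, which ovaries should lack, summed to at most 0.436 CPM.

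Sohlh1 had the greatest fold change with age among the 6 factors, as a description, since it entered the test through the Control ovaries. Its levels were 2.27, 3.36, 2.18 and 3.28 CPM in the Control ovaries. They were 0.476, 0.0704 and 0.165 CPM in the Aged ovaries and 0.458, 1.66 and 0.796 CPM in the Aged+CF ovaries. The Control ovaries lay above all others, while the lowest Aged+CF ovary lay within the Aged range. The mean fell from 2.77 ± 0.635 CPM (SD, n = 4) to 0.237 ± 0.212 CPM (n = 3), a log2 fold change of -3.48 (standard error, SE, 0.60, edgeR adjusted p = 0.00845, or 0.0110 without the filter on low counts). The Aged counts behind it were 8, 1 and 3 reads. In Aged+CF the mean was 0.972 ± 0.622 CPM (n = 3), a log2 fold change of 1.97 over Aged (SE 0.63) with an edgeR p of 0.0111 before and 0.204 after adjustment.
Sohlh2, with which Sohlh1 forms a pair of related proteins, was the least abundant factor. Its counts were 7, 9, 5 and 7 reads in Control, 0 in each Aged ovary, and 0, 4 and 6 reads in Aged+CF. All Control ovaries thus had reads and no Aged ovary did. A floor of 3 counts over the Aged group corresponds to 0.0610 CPM. The pooled Control level of 0.390 CPM was 6.38-fold above that floor, and the pooled Aged+CF level of 0.178 CPM was 2.91-fold above it. Counting error in the Control and Aged+CF reads is not included in these folds. The Aged+CF fold rests on 10 reads in 2 ovaries, and Aged+CF replicate 30 had 0 reads like the Aged ovaries. In the fit without a filter on low counts, the age comparison had an edgeR adjusted p of 0.0406 and the CEFFE comparison one of 0.362.
Figla, the activator of zona pellucida genes, had 1.05, 1.80, 0.608 and 1.32 CPM in Control. In Aged it had 0.536, 0 and 0.110 CPM, and in Aged+CF 0.229, 0.229 and 0.468 CPM. No Aged or Aged+CF ovary reached the lowest Control ovary, and Aged+CF lay inside the Aged range. The log2 fold change in Aged vs Control was -2.39 (SE 0.75, edgeR adjusted p = 0.0578). Without Aged replicate 31, which held 9 of the 11 Figla reads of the group, 2 reads were left in Aged, under the floor of 3 counts, so that no fold is given. Its adjusted p was then 0.0231 by edgeR. Aged+CF differed from Aged by a log2 fold change of 0.49 (95% interval -1.42 to 2.41, edgeR adjusted p = 0.806).

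**Figure D1:**
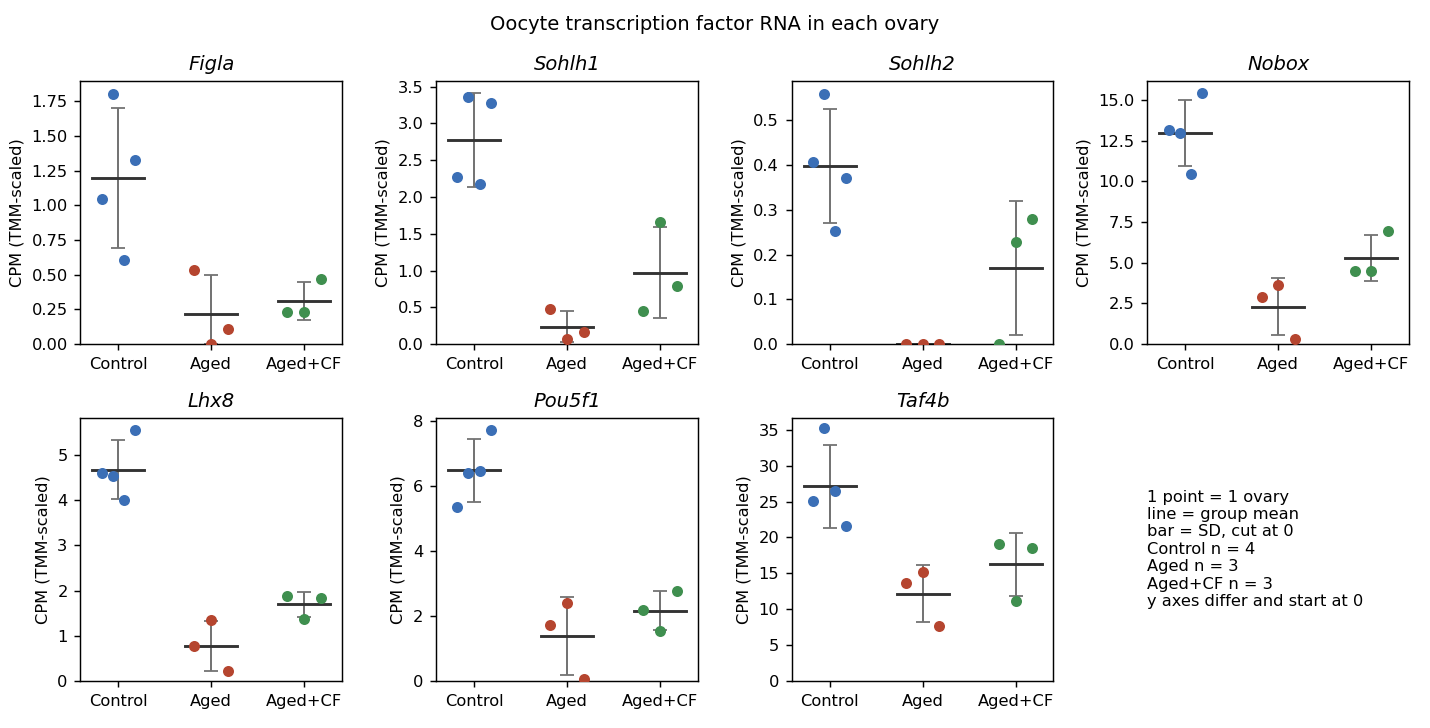
Level of each of the 7 factors in CPM on the y axis for the Control, Aged and Aged+CF ovaries, with a point per ovary, the group mean as a line and the SD as a bar cut at 0. In all 7 panels every Control ovary lies above every Aged ovary, and Sohlh2 had no read in any Aged ovary.

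Of the homeobox genes, Nobox and Lhx8 fell with age and lay higher in each Aged+CF ovary than in any Aged ovary, while Pou5f1 did not pass the test. Nobox had 13.2, 12.9, 10.4 and 15.4 CPM in Control. In Aged it had 2.92, 3.66 and 0.330 CPM, and in Aged+CF 4.52, 4.47 and 6.93 CPM. The 3 groups did not overlap, with Aged+CF between the others. Nobox fell from 13.0 ± 2.03 CPM (SD, n = 4) in Control to 2.30 ± 1.75 CPM (n = 3) in Aged, a log2 fold change of -2.51 (SE 0.56, edgeR adjusted p = 0.0185). Without Control replicate 34, the highest ovary, the adjusted p was 0.0504. In Aged+CF, Nobox was 5.31 ± 1.40 CPM (n = 3), a log2 fold change of 1.22 over Aged (SE 0.57) with an unadjusted edgeR p of 0.0594 and an adjusted p of 0.324.
Lhx8, a LIM homeobox gene, had 4.60, 4.54, 4.0 and 5.56 CPM in Control. In Aged it had 0.774, 1.34 and 0.220 CPM, and in Aged+CF 1.89, 1.38 and 1.83 CPM. The lowest Aged+CF ovary, at 1.38 CPM, lay just above the highest Aged ovary, at 1.34 CPM. Lhx8 fell by 2.61 on the log2 scale from Control to Aged (SE 0.46, edgeR adjusted p = 0.00877), a 6.09-fold difference. Aged+CF exceeded Aged by 1.15 on that scale (SE 0.47), with an unadjusted edgeR p of 0.0354 and an adjusted p of 0.274.
Pou5f1, the POU homeobox factor, had 5.36, 6.41, 6.48 and 7.73 CPM in Control. In Aged it had 1.73, 2.39 and 0.0550 CPM, and in Aged+CF 2.17, 1.55 and 2.76 CPM. The Aged ovaries were spread widely, with a single Pou5f1 read in Aged replicate 34, and Aged+CF overlapped with them. Its log2 fold change in Aged vs Control was -2.24 (SE 0.69, edgeR adjusted p = 0.0533). Without Aged replicate 34 the change was smaller, at -1.62, and the adjusted p was 0.00600. In Aged+CF vs Aged it was 0.66 (95% interval -0.93 to 2.25, edgeR adjusted p = 0.669).

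Taf4b, the TFIID subunit, was the most abundant factor and had the smallest fold change with age among those tested. Its levels were 25.1, 35.3, 26.5 and 21.6 CPM in Control. They were 13.7, 15.1 and 7.60 CPM in Aged and 19.1, 11.2 and 18.5 CPM in Aged+CF. All Control ovaries were above all others, and Aged+CF replicate 32 lay inside the Aged range. Taf4b fell from 27.1 ± 5.81 CPM (SD, n = 4) to 12.1 ± 4.01 CPM (n = 3), a log2 fold change of -1.16 (SE 0.28, edgeR adjusted p = 0.0240). Without Control replicate 32 or Aged replicate 31 the adjusted p was 0.0646 or 0.0518. The log2 fold change in Aged+CF vs Aged was 0.42 (95% interval -0.23 to 1.08, edgeR adjusted p = 0.497).

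Levels of different genes were compared as FPKM, which divides by transcript length. In Control, Taf4b was highest at 5.33 ± 1.09 FPKM, followed by Nobox at 4.05 ± 0.616, Pou5f1 at 2.51 ± 0.371, Sohlh1 at 2.22 ± 0.488, Figla at 1.28 ± 0.522, Lhx8 at 1.23 ± 0.166 and Sohlh2 at 0.174 ± 0.0534 FPKM (SD, n = 4). The ranges of Taf4b and Nobox overlapped, as did those of neighbours from Pou5f1 down to Lhx8. Nobox lay above Pou5f1, and Lhx8 above Sohlh2, without overlap. Among genes with any count, 79.6% had a lower Control mean than Taf4b, and 40.0% a lower one than Sohlh2.
In Aged the order began again with Taf4b at 2.16 ± 0.618 FPKM, clear of Nobox at 0.638 ± 0.469 FPKM (n = 3), and from Nobox down to Sohlh1 neighbours overlapped. In Aged+CF, Taf4b had 3.12 ± 0.868 FPKM, Nobox 1.61 ± 0.416 and Pou5f1 0.814 ± 0.228 FPKM, with no overlap between Taf4b and Nobox or Nobox and Pou5f1. Sohlh1 ranked 4 of 7 in Control and Aged+CF and 6 of 7 in Aged.

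**Figure D2:**
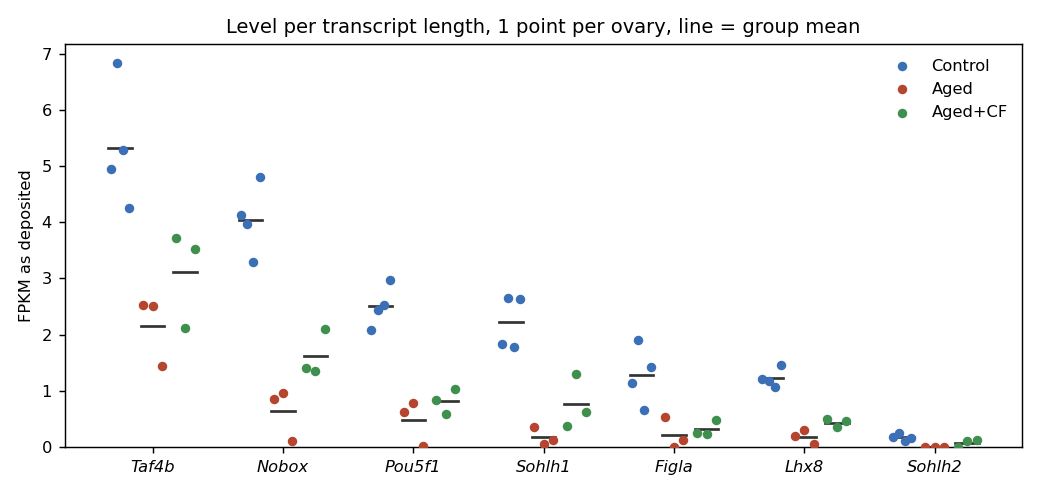
Deposited FPKM on the y axis for the 7 factors on the x axis, in order of their Control mean, with a point per ovary and a line at each group mean. Taf4b leads in the 3 groups, from 5.33 FPKM in Control to 2.16 in Aged and 3.12 in Aged+CF, and Sohlh2 stays lowest.

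Across Aged vs Control, Nobox, Sohlh1, Lhx8 and Taf4b were called lower, that is with a fold change of at least 1.5 and an edgeR adjusted p under 0.05. These are 4 of the 6 tested, where 6.06% of all genes tested were called lower and 5.02% higher. At the unadjusted p, 6 of 6 passed, against 9.44% of all genes. In the 6 genes the groups did not overlap, as was the case in the lower direction for 15.6% of genes tested. The median log2 fold change of the 6 was -2.45, and that of all genes was -0.0005.
In Aged+CF vs Aged, none of the 6 passed the adjusted threshold by edgeR, and 0 genes tested (0%) were called higher. By the unadjusted p, Sohlh1 and Lhx8 passed, 2 of 6, against 3.91% of all genes called higher. DESeq2's Wald test gave 0 at the adjusted and 3 at the unadjusted p, against 211 and 749 of 18956 genes called higher. All 6 fold changes were above 0, with a median of 0.91 on the log2 scale, against -0.02 for all genes. The groups did not overlap in Nobox and Lhx8, as in 10.2% of all genes in the higher direction.
Aged+CF stayed below Control in each of the 6 genes. The log2 fold changes in Aged+CF vs Control were -1.90 for Figla, -1.29 for Nobox, -1.51 for Sohlh1, -1.46 for Lhx8, -0.74 for Taf4b and -1.58 for Pou5f1. Their edgeR adjusted p lay between 0.179 and 0.316, so 0 of 6 were called, where 0.0422% of all genes were. At the unadjusted p 6 of 6 passed, against 4.36% of genes, and the groups did not overlap in 6 of 6, against 12.2%. With Control and Aged+CF alone in the fit, or without Aged replicate 34, Nobox, Lhx8 and Pou5f1 were called at adjusted p between 0.0200 and 0.0264. The Aged ovaries stand in both of the first comparisons and the Control ovaries in the first and the third, so the comparisons are not independent of each other.

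**Figure D3:**
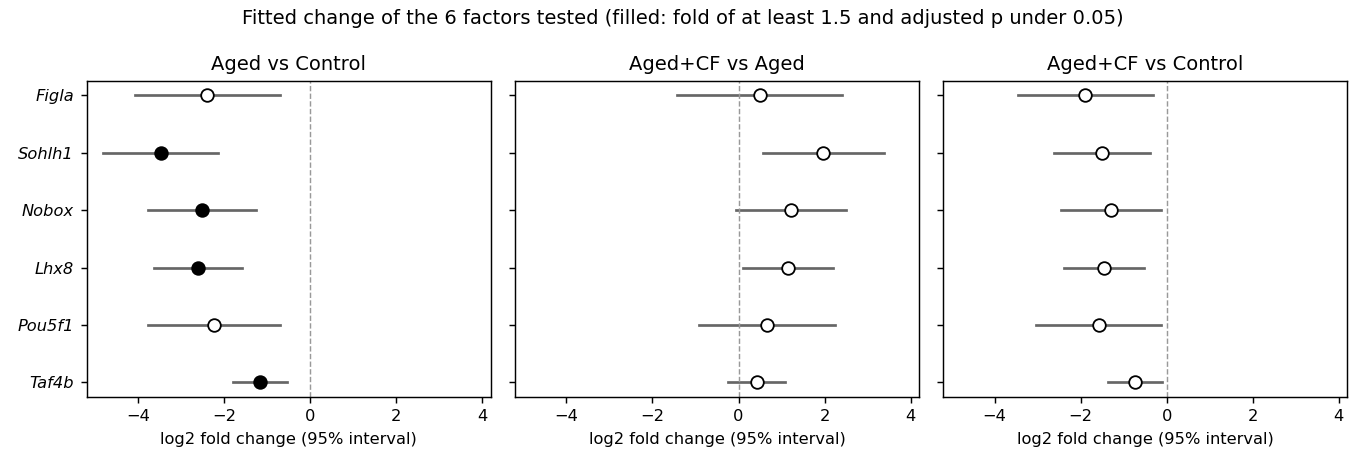
Fitted log2 fold change on the x axis with its 95% interval for the 6 factors tested, in a panel per comparison. Filled points, 4 in Aged vs Control and 0 in the other panels, passed a fold of 1.5 and an adjusted p under 0.05, and Sohlh1 had the largest change at -3.48.

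Of 13 oocyte genes that depend on Figla, Nobox or Sohlh1 in the mouse ovary, 9 were called lower in Aged vs Control and 0 higher, where 6.06% and 5.02% of all genes were. Their median log2 fold change was -2.48. Fgf8 and Gpr149, both called, had at most 0.352 and 0.141 CPM in Aged and did not pass the filter on the old ovaries alone. The count and the median are thus descriptions. The zona pellucida genes Zp3, Zp2 and Zp1 encode the coat of the oocyte. Zp3 had 53.6, 80.5, 55.5 and 76.7 CPM in Control, 14.5, 12.6 and 0.936 CPM in Aged, and 25, 18.8 and 31.5 CPM in Aged+CF. Its groups did not overlap, and the change with age was -2.84 on the log2 scale (edgeR adjusted p = 0.0199) and that of Aged+CF over Aged 1.43 (adjusted p = 0.309). Zp2, Zp1 and Bmp15, which encodes a growth factor secreted by oocytes, had log2 fold changes of -2.78, -2.72 and -2.53 in Aged vs Control (edgeR adjusted p of 0.0269, 0.0182 and 0.0277). Between Aged+CF and Aged the list had 0 genes called and 2 past the unadjusted threshold, with a median of 1.09. Without Control replicate 32 or 34, 2 of the 12 genes then tested were called lower with age, and 4 of 13 without Aged replicate 31. The adjusted p of Zp3 was then 0.0527 and 0.0506, Zp2 also passed no more without Aged replicate 33 (0.0613), Bmp15 was not called without Control replicate 32 (0.0642), Control replicate 34 (0.0657) or Aged replicate 31 (0.0507), and Zp1 stayed called without any single ovary. With only the compared groups in the fit 4 of 12 were called, and with the growing-oocyte marker covariate 0 of 13. In the comparison of Aged+CF with Aged, Bmp15 had an adjusted p of 0.0435 without Aged replicate 34. Of the 13 genes, 9 also stand among the 18 markers of growing oocytes, of which 14 were called lower. The covariate is the score of those 18 markers, so it adjusted the 9 genes partly for themselves, and the 0 of 13 is a description.
Among the 13, 7 had an entry in the promoter table, and 6 of those held an E-box. The Nobox element was in 1, the Bmp15 promoter shown above, and the Lhx8 element in 3.

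Of 12 other transcription and RNA regulators of oocytes, 9 were tested and 7 were called lower in Aged, where 6.06% of all genes tested were. Their median log2 fold change was -2.47. The 2 not called were Foxo3 and Bnc1, a zinc finger factor also made by somatic epithelia, with log2 fold changes of -0.04 each (edgeR adjusted p of 0.793 and 0.971). Ybx2, an RNA-binding protein that stores maternal messages, had a log2 fold change of -2.49 (SE 0.35, edgeR adjusted p = 0.00497). Sall4, a zinc finger factor, the homeobox gene Sebox, and Obox1 of the oocyte homeobox family had log2 fold changes of -2.75, -2.64 and -2.47 (edgeR adjusted p of 0.0310, 0.0361 and 0.0193). Obox7, with at most 0.298 CPM in Aged and 0.515 CPM in Aged+CF, entered the test through the Control ovaries. The count of 7 is thus a description. Between Aged+CF and Aged, 0 of the 9 were called by edgeR and 1 by DESeq2's Wald test, and 2, Ybx2 and Obox1, passed at edgeR's unadjusted p. Leaving out a single ovary left 2 to 7 of the 9 called in Aged vs Control, with 2 called without Control replicate 34. With only the compared groups in the fit 3 were called, and 0 with the growing-oocyte marker covariate described further on. The other ovaries whose absence left 4 or fewer were Control replicates 31 and 32, Aged replicate 31 and each of the Aged+CF ovaries. Ybx2 stayed called without any single ovary. Sebox was called in 2 of 10 such fits, with adjusted p up to 0.116, Sall4 in 3 of 10 (up to 0.0756) and Obox1 in 8 of 10 (up to 0.0640).

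Of 10 genes that work with Pou5f1 in embryonic stem cells, 5 had enough counts for the test. In Aged, 4 were called lower, where 6.06% of all genes tested were. Without Control replicate 32 or 34, 2 were called, and 1 with the growing-oocyte marker covariate. Sall4, 1 of the 4, is also counted among the other oocyte regulators above, and was called in 3 of 10 fits that left out an ovary. Lin28a, 1 of the 4, had at most 0.211 CPM in Aged and did not pass the filter on the old ovaries alone, so the count is a description. Esrrb, a nuclear receptor, had 3.85, 4.42, 3.44 and 3.23 CPM in Control, 0.834, 0.916 and 0.661 CPM in Aged, and 1.43, 2.06 and 1.83 CPM in Aged+CF. Its groups were narrow and did not overlap, and the change with age was -2.21 on the log2 scale (edgeR adjusted p = 0.00358) and 1.14 for Aged+CF over Aged (unadjusted edgeR p of 0.00158, adjusted p of 0.161). Tdgf1, a Nodal co-receptor, had log2 fold changes of -2.44 (edgeR adjusted p = 0.0243) and 1.84 (adjusted p = 0.212) in the same comparisons, and the former adjusted p was 0.0621, 0.0558 and 0.0611 without Control replicate 32, Control replicate 34 and Aged replicate 33. Klf4, which somatic cells also make, had 0.46 in Aged vs Control (edgeR adjusted p = 0.166). The 5 untested genes were named after their values were seen. Zfp42 had no read in any ovary, and Sox2, Prdm14 and Nanog had 4, 2 and 29 reads over all 10 ovaries. Utf1 averaged 0.492 CPM in Control, 0.209 CPM in Aged and 0.215 CPM in Aged+CF.

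Of 22 dimer partners, cofactors and close paralogs of the factors, 19 were tested and 0 were called at the adjusted p in either direction, with 1 higher at the unadjusted p and a median log2 fold change of 0.00. DESeq2's Wald test gave the same counts, 0 and 1. Of the 3 untested genes, Lhx2, a LIM homeobox gene, averaged 0.498 CPM in Control and 0.0903 CPM in Aged, and Tbpl2, a TBP relative of oocytes, 0.385 and 0.0632 CPM, without overlap. Without the filter on low counts 2 of 22 passed in the lower direction at the unadjusted p and 0 at the adjusted p. Tcf3, an E protein with which helix-loop-helix factors pair, had 142, 148, 130 and 149 CPM in Control, 107, 95.9 and 105 CPM in Aged, and 118, 120 and 129 CPM in Aged+CF. The Aged ovaries were below the others without overlap. Its log2 fold change was -0.47 (edgeR adjusted p = 0.00915), under the fold required. Tcf4 and Tcf12, the other E proteins, had log2 fold changes of -0.53 and -0.53 (edgeR adjusted p of 0.178 and 0.0601), and the LIM homeobox gene Lhx9 had 0.66 (adjusted p = 0.477). Without Aged replicate 34, Tcf4 had an adjusted p of 0.0154 with age and 0.0470 in Aged+CF vs Aged. Tcf12 was at 0.0248 without Aged replicate 33 and 0.0452 without Control replicate 32, and Lhx9 at 0.0477 without Aged replicate 33. Taf4, the widely expressed paralog of Taf4b, had 62.3 ± 3.78 CPM in Control (n = 4) and 62.4 ± 2.98 CPM in Aged (n = 3), a log2 fold change of 0.00 (95% interval -0.18 to 0.19).

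Of 19 genes that govern the formation and activation of primordial follicles, 2 were called higher and 1 lower in Aged, with a median log2 fold change of -0.04. These shares are near those of all genes, 5.02% and 6.06%, so the genes named next are values of single genes. Bmp7, a stromal and theca growth factor, and the cell-cycle inhibitor Cdkn1b had log2 fold changes of 1.59 and 1.09 (edgeR adjusted p of 0.0311 and 0.0300), and for both the ranges of the groups overlapped. Neither was called without Aged replicate 31 or 33 or without Control replicate 32, 33 or 34, and Bmp7 also not without Control replicate 31, with adjusted p up to 0.0964 for Bmp7 and 0.0953 for Cdkn1b. Amhr2, the receptor of anti-Müllerian hormone, had -0.82 (edgeR adjusted p = 0.0124), and Amh itself, made by granulosa cells of growing follicles, had -2.74 (adjusted p = 0.0544, or 0.00253 without Aged replicate 34). Foxo3, which holds primordial oocytes dormant and is made by many cell types, had 136 ± 5.05 CPM in Control and 132 ± 15.5 CPM in Aged, with a log2 fold change of -0.04 (edgeR adjusted p = 0.793). With CEFFE against saline, 0 of the 19 genes passed the unadjusted or the adjusted threshold by edgeR or by DESeq2's Wald test, and 1 was called higher by edgeR without Aged replicate 34.

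**Figure D4:**
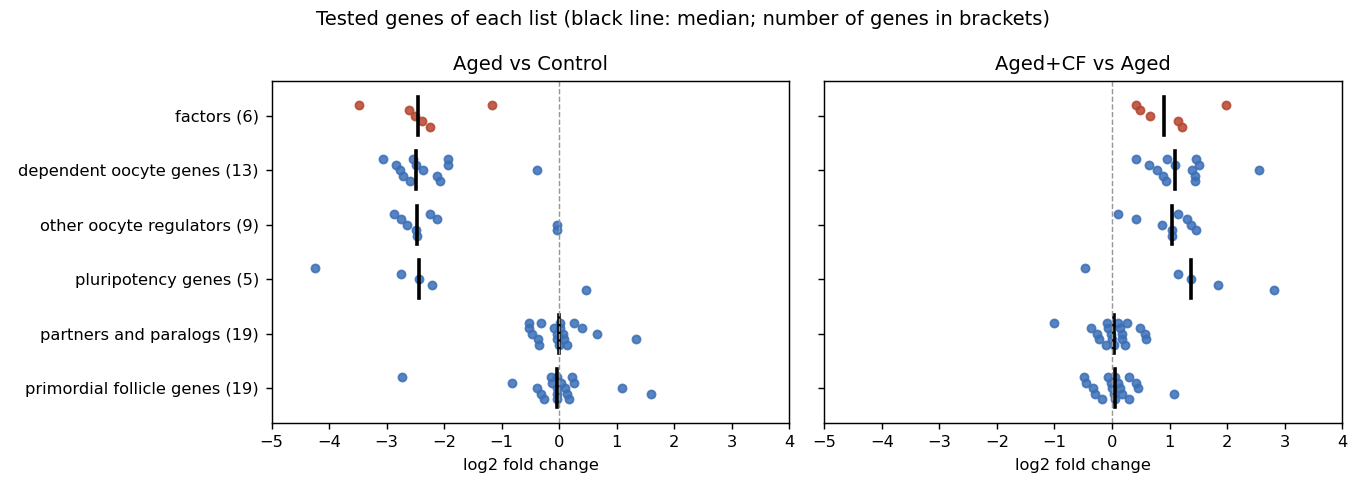
Log2 fold change on the x axis for the tested genes of 6 lists, a point per gene and a black line at the median, in Aged vs Control on the left and Aged+CF vs Aged on the right. Medians of the factors, the dependent oocyte genes, other oocyte regulators and pluripotency genes lie between -2.44 and -2.48 on the left, while those of partners and of primordial follicle genes lie near 0. Shared genes are drawn in each of their lists. These are Sall4 (other oocyte regulators, pluripotency genes), Foxo3 (other oocyte regulators, primordial follicle genes) and Kit (dependent oocyte genes, primordial follicle genes).

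The factors were next set against the growing-oocyte markers of the same ovary, none of which is one of the 7. Of the 18 markers, Tle6 fell less with age, at a log2 fold change of -0.59 against a median of -2.38 for the list. It had at least 21.6 CPM in each Aged ovary, while the whole marker sum of Aged replicate 34 was 41.6 CPM. The ratios were not computed without Tle6. Per 1000 CPM of those markers, Nobox had 14.0 to 18.9 CPM in Control, 7.95 to 16.8 in Aged and 13.7 to 16.7 in Aged+CF. The ranges of the groups overlapped, and a two-sided exact permutation test of Aged vs Control gave p = 0.229 (adjusted p = 0.401 over the 7 factors). Lhx8 had 4.92 to 6.61 in Control, 3.32 to 6.15 in Aged and 4.31 to 5.72 in Aged+CF, also with overlap (exact permutation p = 0.371).
Taf4b differed from this. It had 36.0, 38.2, 36.8 and 23.7 CPM per 1000 CPM of markers in Control, with 58.8, 69.6 and 183 in Aged, then 57.7, 41.7 and 43.7 in Aged+CF. No group overlapped with another. Whether the Taf4b RNA came from oocytes alone was not tested. The exact permutation p was 0.0286 in Aged vs Control, the smallest that 4 ovaries against 3 allow, and 0.1 after adjustment over the 7 factors. The value of 183 belongs to Aged replicate 34, whose marker sum was 41.6 CPM, and without that ovary the Aged values still lay above those of Control. Sohlh2, with no read in Aged, had the same p values as Taf4b in Aged vs Control and moved in the other direction. It had only 5 to 9 reads per Control ovary, at marker sums of 696 to 923 CPM against 41.6 to 233 CPM in Aged. Its Aged ratios thus lie at the floor of the counts, and its p is a description. Over the 3 comparisons, none of the 21 tests passed after adjustment over the 7 factors, where the smallest p allowed in Aged+CF vs Aged is 0.1.
The growing-oocyte marker score of each ovary was then set as a covariate in the edgeR fit. At the adjusted p, 0 of the 6 factors were called in Aged vs Control, while 418 of 18956 genes were called lower. Sohlh1 passed at the unadjusted p, as 2164 genes did in the lower direction. Sohlh1, with 12 reads over the Aged ovaries, had a log2 fold change of -3.04 (unadjusted edgeR p of 0.0271, adjusted p of 0.127), while Nobox had -0.18, Lhx8 -0.92, Taf4b -0.30, Figla -0.74 and Pou5f1 0.80. The score and the groups differ together, since the Control ovaries had the highest marker sums.

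**Figure D5:**
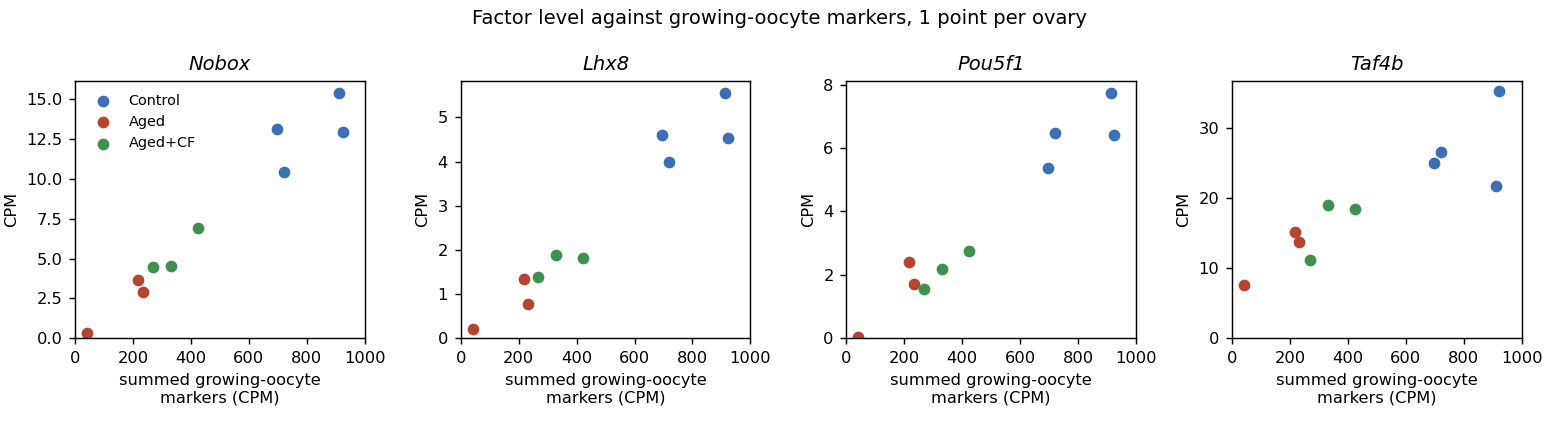
CPM of Nobox, Lhx8, Pou5f1 and Taf4b on the y axis against the summed CPM of 18 growing-oocyte markers on the x axis, a point per ovary coloured by group. The Control ovaries lie at 696 to 923 CPM of markers and the Aged ovary furthest to the left is replicate 34 at 41.6 CPM.

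Across the 10 ovaries the factors ran alongside each other, as a description of libraries that also differ by group. Nobox and Pou5f1 were the closest pair, with a Pearson r of 0.982 between their log2 CPM, and 0.981 after the group means were subtracted. Aged replicate 34 was the lowest ovary for both, at 0.330 CPM of Nobox and 0.0550 CPM of Pou5f1. How far the correlations rest on that ovary was not tested. The partner most like Lhx8 was Nobox (r = 0.974, 0.948 within groups), and that of Taf4b was Lhx8 (0.913, 0.711 within groups). Sohlh1 and Sohlh2 were each other's closest (0.909, 0.535 within groups), and Figla was closest to Sohlh1 (0.888, 0.680 within groups).
Among 16736 other genes, the one most like the mean profile of the 7 was Ybx2 (r = 0.996, 0.970 within groups), which had 17.6 ± 3.86 CPM in Control (n = 4), 3.13 ± 1.44 in Aged and 6.92 ± 1.56 in Aged+CF (n = 3 each). Dnmt1, the maintenance DNA methyltransferase, followed (0.993, 0.965 within groups), with 215 ± 16.1, 95.9 ± 20.3 and 146 ± 22.0 CPM. The next were Zbed3, the cell-cycle factor Mybl2, the germ-cell RNA-binding protein Dazl and the monoamine transporter Slc18a2, with r of 0.988, 0.988, 0.987 and 0.986. Alpk3, Uhrf1, which guides Dnmt1 to replicated DNA, Gm1965, and Pabpc1l, a poly(A)-binding protein of oocytes, completed the 10 closest, with r of 0.985 (Uhrf1) and 0.982 (Pabpc1l). Within groups the r of the 10 lay between 0.867 and 0.970, and none of them is among the 18 growing-oocyte markers. The mean profile of the 7, in standardized units, was -1.74 in Aged replicate 34, against -0.554 and -0.818 in the other Aged ovaries. The r values were not computed without that replicate.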

How the data were processed

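RNA of 10 ovaries was analysed, with a library per ovary. The authors deposited a table with the raw count of reads for every gene and ovary, and beside it FPKM values. The deposited FPKM equals the count over a fixed gene length and over the ovary's count total. The submitters' processing notes name TopHat, Cufflinks 2.1.1 and GRCm38.p4. The counting tool, the annotation and the use of strand are not given in the sources used here. Groups followed the labels, and separate ovaries came from separate animals.

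The edgeR package (4.0, R 4.3) was run on the counts. Its filterByExpr function (minimum count 10) chose the genes, libraries were scaled by TMM, and the 10 ovaries were fitted with a mean per group, tested by the quasi-likelihood F test and adjusted by the Benjamini-Hochberg method over 18956 genes. A call needed 1.5-fold or more and a p under 0.05, adjusted as in the study's methods or unadjusted. The study names no test for the sequencing. Intervals are 95% intervals of the fit. Folds against 0 counts used 3 counts over the group without reads. That covers the counting error of the 0 counts only, not that of the other group or the spread between ovaries. The fit was tested on simulated counts.

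The factors, the gene lists and the tests were chosen with earlier results of these data known. From each list, the up to 4 genes with the largest change in Aged vs Control and a mean of at least 1 CPM were named, and the 10 genes with the highest r (log2 CPM, prior count 2). Exceptions, named after their values were seen, are Taf4, Foxo3, Bnc1, Lhx2, Tbpl2, Zfp42, Sox2, Prdm14, Nanog, Utf1, Fgf8, Gpr149, Obox7, Lin28a, Insl3 and Cyp17a1. Positions are from GENCODE M21. Alternatives were no filter, DESeq2 size factors, DESeq2 1.42 (Wald test), the compared groups alone, the replicate number as a block, the score of growing-oocyte markers as a covariate, and leaving out each ovary.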

Additional observations from a re-analysis of the deposited data

How the results depend on the processing

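The factors called lower in Aged vs Control numbered 4 in the reported fit and 6 at the unadjusted p. They numbered 5 without the filter on low counts (which brought in Sohlh2), 6 by DESeq2's Wald test, 4 with DESeq2 size factors or the compared groups alone, 0 with the growing-oocyte marker covariate, and 3 to 5 when an ovary was left out. Over all genes, 1148 were called lower, against 1790 at the unadjusted p and 418 with the covariate. There were 903 without the filter, 1378 by the Wald test, 1093 with DESeq2 size factors and 844 with the compared groups alone. When an ovary was left out, there were 637 (without Control replicate 32) to 1458 (without Aged replicate 34). In Aged+CF vs Aged, 0 factors were called higher in every setting, against 2 at the unadjusted p. All genes called higher numbered 0, against 741 at the unadjusted p, 1 with the compared groups alone, 39 with the covariate, 211 by the Wald test and 0 to 138 with an ovary left out, the latter without Aged replicate 34. In Aged+CF vs Control, 0 factors were called lower, against 6 at the unadjusted p, 3 with the compared groups alone, 1 by the Wald test and 0 to 3 with an ovary left out (3 without Aged replicate 34). All genes called lower numbered 8, against 826 at the unadjusted p, 254 with the compared groups alone, 218 by the Wald test and 1 to 168 with an ovary left out.

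Directions turned in 7 combinations of gene and comparison, all from the fit with the covariate or the fit without Aged replicate 33. With the covariate, Pou5f1 was at 0.80 in Aged vs Control, Figla at -0.33, Taf4b at -0.0275 and Pou5f1 at -0.60 in Aged+CF vs Aged, and Nobox at 0.0161 and Pou5f1 at 0.20 in Aged+CF vs Control. Figla in Aged+CF vs Aged lay between -0.0341 (without Aged replicate 33) and 2.24 (without Aged replicate 31, which leaves 2 Aged reads) when an ovary was left out. The cause was not tested. DESeq2 size factors turned no direction. Depth limits the folds of Figla, Sohlh1 and Sohlh2, which had 11, 12 and 0 reads over the Aged ovaries.

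Groups share replicate numbers that come from different animals. Deviations of same-numbered ovaries correlated between -0.18 and 0.15. Those of differently numbered ovaries of different groups ranged from -0.19 to 0.19. A batch shared by same-numbered ovaries was not tested. With the replicate number as a block, 0 factors and 24 genes were called lower in Aged vs Control, 0 factors and 0 genes higher in Aged+CF vs Aged, and 0 factors and 0 genes lower in Aged+CF vs Control. At the unadjusted p, 6, 1 and 0 factors passed with the block, against 1604, 473 and 572 of 18956 genes in the same directions. Of the dependent oocyte genes, other oocyte regulators, pluripotency genes and primordial follicle genes, 0 were called in Aged vs Control with the block.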
